A study of Mus musculus with 24 samples.

Results

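Matrix metalloproteinases and their inhibitors were followed from freshly isolated mouse type II alveolar epithelial cells (AEC2s) through 7 days of culture. The 10 genes are a list of names, to which no threshold on their values was applied: the metalloproteinases Mmp2, Mmp3, Mmp9, Mmp10, Mmp13, Mmp14 and Mmp19, and the tissue inhibitors of metalloproteinases (TIMPs) Timp1, Timp2 and Timp3. The list was chosen with earlier results of these data known. All 10 were found among the 55421 mouse genes of the table, and all 10 were among the 18046 genes that passed the filter on low counts. AEC2s came from Krt8+/+ mice or from Krt8-/- mice, which lack the keratin 8 gene in the germline, so every cell type of these mice is affected. RNA was taken before culture (day 0) and after 1, 3 and 7 days in 2D culture, the same 4 times in both genotypes, with no other treatment named in the labels. Each of the 8 groups of genotype and day holds 3 libraries, 1 for each of 3 dates in the sample names, for 24 libraries in all. Libraries that share a date are called an isolation here, which is a reading of the names. The labels give neither the age nor the number of mice behind an isolation. Counts are given as CPM, each gene's count scaled to a common library total with edgeR's TMM factors, differences were tested with edgeR's quasi-likelihood test with Benjamini-Hochberg adjustment over the 18046 genes, and an adjusted p under 0.05 was called a change.

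Matrix metalloproteinases are zinc-dependent proteases that cut collagens, laminins, proteoglycans and other proteins of the extracellular matrix. Most are secreted as inactive pro-enzymes and are switched on by removal of a propeptide, and TIMPs block the active enzymes by binding to their catalytic site. Mmp3 and Mmp10 are stromelysins, Mmp13 is a collagenase, Mmp2 and Mmp9 are gelatinases, and Mmp14 is anchored in the plasma membrane, where it activates pro-Mmp2 with the help of Timp2. In the lung these proteins are known for remodelling of the basement membrane and of the scar after injury.

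Mmp13, Mmp3 and Mmp10 are neighbours on chromosome 9, and all 3 had a TATA box and an AP-1 element close to their start. In GRCm38 with GENCODE M21 genes, Mmp13 lies at chr9:7272514-7283331, Mmp3 at chr9:7445822-7455975 and Mmp10 at chr9:7502352-7510240, all on the forward strand. RefSeq's promoter table (GRCm38.p6) held 7 of the 10 members, and Mmp2, Mmp9 and Mmp19 were not matched. In the 250 bases before the annotated start, the AP-1 element (TGANTCA, which reads the same on both strands apart from its middle base) and the TATA box (TATAAA, both strands) were searched. Of 32851 promoters, 6.75% held the AP-1 element, 12.4% the TATA box and 1.21% both. Mmp3, Mmp10 and Mmp13 held both, and Mmp14, Timp1, Timp2 and Timp3 held neither. The AP-1 element began 46 bases before the start of Mmp3, 63 bases before that of Mmp10 and 35 bases before that of Mmp13. TATAAA began 7, 29 and 16 bases before these annotated starts, so its place differed between the 3 genes. The last 120 bases before the start are shown for these 3 genes and, as a member without either element, for Timp1, 5′ to 3′ on the forward strand with the 2 elements in capitals. They span chr9:7445702-7445821 for Mmp3, chr9:7502222-7502341 for Mmp10, chr9:7272394-7272513 for Mmp13 and chrX:20870046-20870165 for Timp1.
Mmp3: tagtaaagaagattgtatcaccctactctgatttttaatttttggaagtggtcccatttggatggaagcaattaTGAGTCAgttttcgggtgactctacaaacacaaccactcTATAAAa
Mmp10: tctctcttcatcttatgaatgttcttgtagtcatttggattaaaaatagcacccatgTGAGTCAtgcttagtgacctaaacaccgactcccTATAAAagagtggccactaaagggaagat
Mmp13: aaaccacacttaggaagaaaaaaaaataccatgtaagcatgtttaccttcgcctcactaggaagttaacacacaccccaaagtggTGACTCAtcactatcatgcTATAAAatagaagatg
Timp1: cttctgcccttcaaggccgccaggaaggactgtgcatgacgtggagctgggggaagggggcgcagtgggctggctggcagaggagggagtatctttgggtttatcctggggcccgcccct
A match of letters is a description of the sequence and not of binding. Of the 7 other genes in this run of chromosome 9, 4 (Mmp1a, Mmp1b, Mmp7 and Mmp20) also held both elements in a promoter window, and each of these 4 had at most 9 counts over the 24 libraries.

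Library totals ranged from 10184439 to 19483386 counts. Krt8 was measured at 484 to 5087 CPM in the Krt8+/+ libraries and at 21.1 to 47.4 CPM in the Krt8-/- libraries. In isolation 1 the Krt8+/+ libraries held Xist at 62.4 to 79.5 CPM and Y-linked genes at no more than 0.44 CPM in sum, and the Krt8-/- libraries held Xist at 5.91 to 11.9 CPM and the Y-linked genes at 173 to 191 CPM, so sex and genotype cannot be told apart in that isolation. In isolations 2 and 3 these genes put both genotypes on the same side. The AEC2 markers, 9 genes among them Sftpc, summed to 230770 to 308810 CPM on day 0, to 14392 to 89034 CPM on day 1, to 408 to 751 CPM on day 3 and to 189 to 289 CPM on day 7. The 10 fibroblast markers summed to 299 to 1055 CPM on day 0, 106 to 319 CPM on day 1, 633 to 1791 CPM on day 3 and 841 to 3178 CPM on day 7, and the 10 macrophage markers to 7.95 to 49.0, 21.2 to 177, 17.0 to 126 and 10.2 to 139 CPM. The fibroblast markers were split: from day 0 to day 7, 4 rose and 4 fell in Krt8+/+ and 4 rose and 3 fell in Krt8-/- AECs. Of all genes, 28.6% rose in each genotype, and 30.2% fell in Krt8+/+ and 29.9% in Krt8-/- AECs. Pdgfrb and Thy1 were among the markers that rose, and Dcn and Mfap4 among those that fell. The 4 mesothelial markers summed to 66.2 to 205 CPM on day 0, 193 to 464 CPM on day 1, 749 to 1316 CPM on day 3 and 878 to 2452 CPM on day 7, with Wt1 and Upk3b under 10 CPM in all cultured libraries. The 9 neutrophil markers summed to at most 5.21 CPM in any library, with 3 to 8 of the 9 at 0. In bulk RNA, fewer cells of a type and less RNA per cell cannot be told apart.

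Most of the 10 members rose in culture. In Krt8+/+ AECs, 7 of the 10 members were higher on day 1 than on day 0, where 54.7% of all genes tested were called and 26.2% were higher. On day 3 it was 8 of 10 (54.0% of all genes called, 26.1% higher), and on day 7 again 8 of 10 (58.8% called, 28.6% higher). In Krt8-/- AECs, 8, 8 and 7 members were higher on days 1, 3 and 7, where 50.6%, 52.0% and 58.5% of all genes were called and 23.7%, 25.4% and 28.6% were higher. No member was called lower than on day 0 on any day, where 28.5%, 27.8% and 30.2% of all genes were lower in Krt8+/+ and 26.9%, 26.6% and 29.9% in Krt8-/- AECs. The median log2 difference of the 10 members on day 7 was 3.50 in Krt8+/+ and 4.13 in Krt8-/- AECs, against 0 and 0.00242 for all genes tested, on the fitted scale. Mmp10 and Mmp13, which had no counts on day 0, lie above both medians at their lower bounds too, so the medians do not depend on them. Since the members were chosen with earlier results of these data known, these counts and medians describe the list and are not a test of it. Of the 10 other metalloproteinase genes tested, 2 were higher and 4 lower on day 1 than on day 0 in each genotype. On day 3, 5 were higher and 3 lower in Krt8+/+ and 4 higher and 3 lower in Krt8-/- AECs. On day 7, 5 were higher and 2 lower in each genotype. The members did not follow 1 course.

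**Figure D1:**
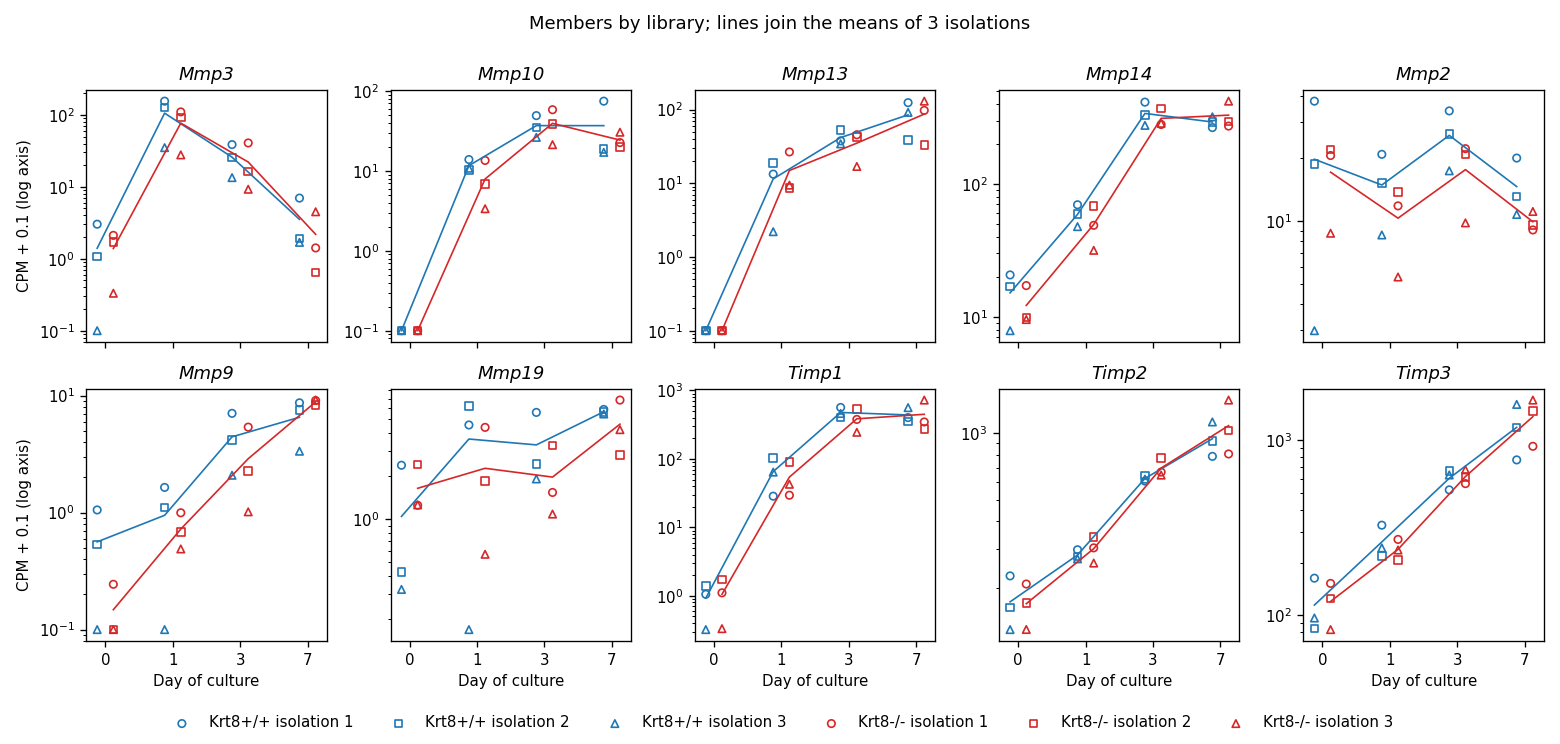
CPM + 0.1 on a log axis (vertical) by day of culture (horizontal) for the 10 members, with Krt8+/+ libraries in blue, Krt8-/- libraries in red, a marker for each of the 3 isolations and lines through the group means. Mmp3 peaked on day 1, Mmp10, Mmp13, Mmp14 and Timp1 climbed from day 0 to day 3, Timp2 and Timp3 were highest on day 7, and Mmp2 overlapped with its day 0 values on every day.

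Mmp3 (stromelysin-1), which cuts proteoglycans, laminin and fibronectin and can activate other pro-metalloproteinases, was the early member. It was counted at 2.92, 0.974 and 0 CPM on day 0 in Krt8+/+ isolations 1, 2 and 3, and at 155, 127 and 34.9 CPM on day 1. On day 3 it was at 38.5, 25.3 and 13.3 CPM and on day 7 at 6.87, 1.82 and 1.59 CPM. Every day 1 value was above every day 0 and day 7 value, and the lowest library of each cultured day was isolation 3. The rise from day 0 to day 1 was 6.16 ± 0.99 on the log2 scale (SE, 3 of 3 isolations, adjusted p = 2.86e-05). On day 7 the difference from day 0 was 1.23 ± 0.97 and was not called (adjusted p = 0.283).

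The same course was seen without keratin 8. In Krt8-/- AECs Mmp3 was at 2.01, 1.62 and 0.232 CPM on day 0, at 110, 92.6 and 27.7 CPM on day 1, at 40.6, 16.3 and 9.15 CPM on day 3 and at 1.31, 0.545 and 4.40 CPM on day 7. It rose by 5.89 ± 0.99 (log2, adjusted p = 5.15e-05) to day 1. From day 1 to day 7, a comparison added after the values were seen, Mmp3 fell by 4.93 ± 0.90 in Krt8+/+ and by 5.17 ± 0.92 in Krt8-/- AECs (log2, lower in 3 of 3 isolations each, adjusted p = 0.000213 and 0.000171). Mmp3 was the only member called lower on day 7 than on day 1 (40.0% and 38.4% of all genes were called, 19.7% and 18.7% lower), and 7 others were higher in each genotype (20.3% and 19.7% of all genes).

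Mmp10 (stromelysin-2) and Mmp13 (collagenase-3, which cuts fibrillar collagens) were not counted at all in the 6 fresh libraries. Mmp10 stood at 13.8, 10.2 and 10.7 CPM on day 1, 49.2, 35.2 and 26.2 CPM on day 3 and 74.7, 18.7 and 17.0 CPM on day 7 in Krt8+/+ AECs. The Krt8-/- libraries held 13.4, 6.80 and 3.27, then 58.4, 38.4 and 21.2, then 22.6, 19.8 and 30.5 CPM. All cultured libraries were thus above all fresh ones, and the day 3 and day 7 values overlapped. Set against a floor of 3 counts over the 3 day 0 libraries of a genotype, Mmp10 was at least 132-fold, 412-fold and 428-fold higher on days 1, 3 and 7 in Krt8+/+ and at least 92.2-fold, 483-fold and 300-fold higher in Krt8-/- AECs (adjusted p from 4.95e-07 to 2.31e-05). Day 3 was higher than day 1 by 1.67 ± 0.55 in Krt8+/+ (adjusted p = 0.0331) and 2.34 ± 0.56 in Krt8-/- AECs (log2, adjusted p = 0.00685), and day 7 was higher than day 1 by 1.67 and 1.64 (adjusted p = 0.0228 and 0.0276).

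Mmp13 had its highest group mean on day 7. It stood at 13.2, 18.8 and 2.10 CPM on day 1, 37.5, 53.1 and 34.2 CPM on day 3 and 124, 38.7 and 91.4 CPM on day 7 in Krt8+/+ AECs. The Krt8-/- libraries held 26.5, 8.55 and 9.33, then 45.4, 42.6 and 16.8, then 97.4, 32.9 and 130.0 CPM. On day 7 isolation 2 was the lowest library in both genotypes, and isolations 1 and 3 were above every day 3 value. Against the same floor Mmp13 was at least 123-fold, 468-fold and 995-fold higher in Krt8+/+ and at least 170-fold, 434-fold and 1109-fold higher in Krt8-/- AECs on days 1, 3 and 7 (adjusted p from 1.37e-06 to 0.000129). Its difference between days 3 and 7 was not called (log2 1.03 ± 0.64 and 1.31 ± 0.65, adjusted p = 0.428 and 0.242). From day 1 to day 7 the added comparison gave a rise of 2.91 ± 0.70 in Krt8+/+ and 2.56 ± 0.68 in Krt8-/- AECs (log2, adjusted p = 0.00337 and 0.00715). These steps within culture were less firm than the appearance from 0: without isolation 2 the day 3 against day 1 rise of Mmp10 had adjusted p = 0.198 in Krt8+/+ and 0.0879 in Krt8-/- AECs and its day 7 against day 1 rise 0.0954 and 0.144. The latter was 0.77 on the log2 scale with 0.154 in Krt8+/+ AECs without isolation 1, and without isolation 3 those of Mmp10 had 0.0532 (day 3, Krt8+/+) and 0.185 (day 7, Krt8-/-) and that of Mmp13 to day 7 had 0.0577 in Krt8-/- AECs. Mmp10 and Mmp3 share 140 stretches of 50 bases, 8.37% of those of Mmp10, so a small part of their reads could be split between them.

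Mmp14 (MT1-MMP), the membrane-anchored collagenase and activator of pro-Mmp2, was present before culture and reached a plateau by day 3. It stood at 20.5, 16.8 and 7.74 CPM on day 0, 69.6, 59.4 and 47.6 CPM on day 1, 413, 329 and 276 CPM on day 3 and 266, 292 and 320.0 CPM on day 7 in Krt8+/+ AECs. The Krt8-/- libraries held 17.0, 9.71 and 9.42, then 48.7, 68.1 and 31.5, then 280, 369 and 286, then 273, 296 and 420.0 CPM. Days 0, 1 and 3 did not overlap in either genotype, and days 3 and 7 did. The differences from day 0 were 1.96 ± 0.32, 4.48 ± 0.35 and 4.27 ± 0.34 on days 1, 3 and 7 in Krt8+/+ and 2.03 ± 0.32, 4.68 ± 0.35 and 4.77 ± 0.35 in Krt8-/- AECs (log2, higher in 3 of 3 isolations each, adjusted p from 6.91e-10 to 3.18e-05). Between days 3 and 7 Mmp14 differed by -0.21 ± 0.29 and 0.08 ± 0.29 (log2, adjusted p = 0.772 and 0.922). Mmp14 lies at chr14:54431612-54445364 on the forward strand.

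The gelatinases went separate ways. Mmp2 (gelatinase A; chr8:92827291-92853420) was at 37.6, 18.7 and 2.88 CPM on day 0 and at 19.99, 13.01 and 10.7 CPM on day 7 in Krt8+/+ AECs, and at 20.6, 22.05 and 8.64, then 8.97, 9.49 and 11.03 CPM in Krt8-/- AECs. Fresh and cultured values overlapped, and isolation 3 was the lowest library on days 0, 1 and 3 in both genotypes. None of its differences from day 0 was called (log2 from -0.79 ± 0.58 to 0.37 ± 0.57, adjusted p from 0.249 to 0.959). Without isolation 3, Mmp2 was lower on day 7 than on day 0 in Krt8-/- AECs (log2 -1.21, adjusted p = 0.00708) and lower on day 7 than on day 3 (log2 -1.22, adjusted p = 0.0442).

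Mmp9 (gelatinase B; chr2:164940780-164955850) came up late and from very few counts. On day 0 it had 19 counts in the 3 Krt8+/+ libraries and 2 in the 3 Krt8-/- libraries. It was at 1.54, 1.00 and 0 CPM on day 1, 6.95, 4.08 and 1.98 CPM on day 3 and 8.57, 7.46 and 3.24 CPM on day 7 in Krt8+/+ AECs, and at 0.896, 0.583 and 0.389, then 5.27, 2.17 and 0.915, then 8.97, 8.17 and 9.05 CPM in Krt8-/- AECs. All day 7 values were above all day 0 and day 1 values. In Krt8+/+ AECs the difference from day 0 was 0.72 ± 0.95 on day 1 (adjusted p = 0.543), 3.07 ± 0.90 on day 3 (adjusted p = 0.00694) and 3.64 ± 0.91 on day 7 (adjusted p = 0.0018). In Krt8-/- AECs Mmp9 was higher on day 1 (adjusted p = 0.0479), day 3 (0.000804) and day 7 (3.59e-05), and its ratio of day 7 to day 0 was 161 with an exact 95% counting interval of 44.3 to 1336. Without isolation 2, the Krt8+/+ calls on days 3 and 7 had adjusted p = 0.0915 and 0.0571, and the Krt8-/- call on day 1 was lost without isolation 1 (0.0773) and without isolation 2 (0.24).

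Mmp19, which cuts basement membrane proteins, stayed low. It was at 2.29, 0.325 and 0.221 CPM on day 0 and at 5.78, 5.55 and 5.36 CPM on day 7 in Krt8+/+ AECs, and at 1.15, 2.33 and 1.16, then 6.74, 2.72 and 4.14 CPM in Krt8-/- AECs. In both genotypes every day 7 library was above every day 0 library. The day 7 difference was 2.44 ± 0.95 in Krt8+/+ (log2, adjusted p = 0.0324) and 1.57 ± 0.92 in Krt8-/- AECs (adjusted p = 0.149), and the former had adjusted p = 0.187 without isolation 2. The latter was called when only the libraries compared were fitted (adjusted p = 0.0215). Mmp19 lies at chr10:128790910-128800824 and shares 22.3% of its exon bases with Tmem198b on the opposite strand. Tmem198b had 2614 counts against 1002 for Mmp19, and since the strand setting of the counting is not given in the sources used here, reads of these 2 genes cannot be told apart with certainty.

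The 3 inhibitors all rose, Timp1 from near 0 and Timp2 and Timp3 from a high base. Timp1, a secreted inhibitor that also acts as a growth factor, was at 0.953, 1.299 and 0.221 CPM on day 0, 28.5, 103 and 64.1 CPM on day 1, 565, 406 and 462 CPM on day 3 and 402, 354 and 561 CPM on day 7 in Krt8+/+ AECs. The Krt8-/- libraries held 1.01, 1.62 and 0.232, then 29.4, 90.6 and 42.5, then 378, 534 and 245, then 347, 276 and 724 CPM. Days 0, 1 and 3 did not overlap, and days 3 and 7 did. On day 1 isolation 2 was highest in both genotypes, and in the same isolation the AEC2 markers were lowest, at 15233 and 14392 CPM against 64003 to 89034 CPM in isolations 1 and 3, and their part in the level of Timp1 was not tested. The differences from day 0 were 6.26 ± 0.67, 9.13 ± 0.72 and 9.01 ± 0.71 in Krt8+/+ and 5.88 ± 0.66, 8.71 ± 0.70 and 8.93 ± 0.71 in Krt8-/- AECs (log2, higher in 3 of 3 isolations each, adjusted p from 1.73e-09 to 3.71e-07). On days 3 and 7 these were the largest fitted log2 differences among the 8 members with counts on day 0, and on day 1 Mmp3 had a like value. Timp1 lies on the X chromosome at chrX:20870166-20874735, inside the span of Syn1, which is on the opposite strand and shares no exon base with it.

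Timp2, a secreted inhibitor that also takes part in pro-Mmp2 activation, was at 226, 162 and 129 CPM on day 0 and at 297, 277 and 270.3 CPM on day 1, 608, 646 and 620.3 CPM on day 3 and 786, 923 and 1126 CPM on day 7 in Krt8+/+ AECs. The Krt8-/- libraries held 208, 171 and 129, then 303, 340 and 259, then 668, 774 and 647, then 806, 1029 and 1414 CPM. No group overlapped with the group of the next day in either genotype. The differences from day 0 were 0.70 ± 0.21, 1.85 ± 0.22 and 2.45 ± 0.22 in Krt8+/+ and 0.83 ± 0.21, 2.04 ± 0.22 and 2.68 ± 0.22 in Krt8-/- AECs (log2, adjusted p from 3.74e-09 to 0.00824). Without isolation 2 the Krt8+/+ rise to day 1 had adjusted p = 0.063. Timp2 lies at chr11:118301069-118355740 on the reverse strand.

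Timp3, which binds to the extracellular matrix and inhibits ADAM proteases as well, climbed to the last day. It was at 163, 83.9 and 96.6 CPM on day 0, 327, 218 and 242 CPM on day 1, 519.7, 664 and 632 CPM on day 3 and 771, 1177 and 1597 CPM on day 7 in Krt8+/+ AECs, and at 152, 125 and 82.9, then 271, 207 and 236, then 564, 617 and 676, then 921, 1467 and 1691 CPM in Krt8-/- AECs. No group overlapped with that of the next day, and on day 7 isolation 3 was highest and isolation 1 lowest in both genotypes. The differences from day 0 were 1.195 ± 0.29, 2.40 ± 0.30 and 3.37 ± 0.31 in Krt8+/+ and 0.99 ± 0.28, 2.37 ± 0.30 and 3.50 ± 0.31 in Krt8-/- AECs (log2, adjusted p from 7.87e-09 to 0.00673), and without isolation 3 the Krt8-/- value on day 1 had adjusted p = 0.0831. Timp3 lies at chr10:86300372-86349506 inside the span of Syn3, which is on the opposite strand, shares 21.3% of the exon bases of Timp3 and had 978 counts against 197124.

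The steps within culture separated the early from the late movers. From day 1 to day 3, 7 members were higher in Krt8+/+ AECs (Mmp9, Mmp10, Mmp13, Mmp14, Timp1, Timp2 and Timp3; 26.3% of all genes called, 14.4% higher) and 5 in Krt8-/- AECs (Mmp10, Mmp14, Timp1, Timp2 and Timp3; 23.6% called, 13.4% higher). Mmp3 had 3 of 3 isolations lower over this step in each genotype, with log2 differences of -2.04 ± 0.77 and -1.80 ± 0.77 that were not called (adjusted p = 0.056 and 0.0947). They were called when isolation entered as a replicate block (0.0127 and 0.0191) and without the filter on low counts (0.0182 and 0.0429). With the block, Mmp9 was also called in Krt8-/- AECs over this step (adjusted p = 0.0253 against 0.0791, and 0.0472 with DESeq2). The Krt8+/+ calls of Mmp9, Mmp10 and Mmp13 had adjusted p from 0.0331 to 0.0497. Mmp13 lost its call without isolation 1, 2 or 3 (0.136, 0.0687 and 0.153) and with DESeq2 (0.0523), Mmp9 without isolation 1 (0.118) or 2 (0.242), Mmp10 without isolation 2 (0.198) or 3 (0.0532) and Timp3 without isolation 2 (0.1). The later rise of Mmp9 from day 1 to day 7 had 0.129 in Krt8+/+ and 0.0653 in Krt8-/- AECs without isolation 2.

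From day 3 to day 7 Mmp3 and Timp3 were called, in opposite directions. Of all genes, 6.58% were called in Krt8+/+ AECs (3.11% higher, 3.47% lower) and 10.5% in Krt8-/- AECs (4.40% higher, 6.15% lower). Mmp3 fell by 2.89 ± 0.84 in Krt8+/+ and by 3.37 ± 0.88 in Krt8-/- AECs (log2, adjusted p = 0.0422 and 0.0156). Timp3 rose by 0.96 ± 0.28 and 1.14 ± 0.28 (adjusted p = 0.0435 and 0.012). Both moved the same way in 3 of 3 isolations in each genotype, but neither call held without isolation 2 (Mmp3 0.403 and 0.18, Timp3 0.272 and 0.144), Mmp3 was also not called without isolation 1 (0.095 and 0.223), and Timp3 was not called without isolation 3 (0.323 and 0.124). In Krt8-/- AECs Mmp9 was called as well with the replicate block (log2 2.09, adjusted p = 0.0159) and Timp2 with DESeq2 (adjusted p = 0.0251, against 0.0577 with edgeR). In Krt8+/+ AECs a fit of only the libraries compared called Timp2 (adjusted p = 0.0429) and not Timp3 (0.0518).

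Per kilobase of exon, the listed metalloproteinase with the highest mean share changed from Mmp2 to Mmp3 to Mmp14. Metalloproteinases outside the list are left out of these shares. One of them, Mmp15, had a mean of 333 CPM on day 0 in Krt8+/+ and 319 CPM in Krt8-/- AECs. Mmp2 had 19.7 and 17.1 CPM. The shares are levels and not differences, given as parts of the summed CPM per kilobase of the 7 metalloproteinases, over 3 libraries a group. On day 0 Mmp2 held 54.8% ± 14.3 (SD) in Krt8+/+ and 60.5% ± 6.02 in Krt8-/- AECs. On day 1 Mmp3 held 65.2% ± 11.04 and 63.5% ± 7.28. On day 3 Mmp14 led with 48.7% ± 3.40 and 51.1% ± 13.8, and on day 7 it held 46.9% ± 15.1 and 51.6% ± 9.48, followed by Mmp13 with 27.2% ± 8.47 and 28.0% ± 10.9. Mmp2 led in 5 of the 6 day 0 libraries, with Mmp14 ahead in Krt8+/+ isolation 3 (1.299 against 0.853 CPM per kilobase). Mmp3 led in all 6 day 1 libraries and Mmp14 in all 6 day 3 libraries. On day 7 Mmp14 led in 5 of 6, with Mmp13 ahead in Krt8+/+ isolation 1 (46.4 against 44.6 CPM per kilobase). On day 7 the shares of Mmp14 (30.1% to 62.4%) and Mmp13 (15.5% to 35.3%) overlapped in range.

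Among the inhibitors the lead passed from Timp2 to Timp1. Timp2 held 74.9% ± 2.701 (SD) of the summed CPM per kilobase of the 3 TIMPs on day 0 in Krt8+/+ and 73.6% ± 2.21 in Krt8-/- AECs, where Timp1 held 1.55% ± 1.11 and 1.71% ± 1.20. On day 3 Timp1 held 69.3% ± 4.74 and 61.7% ± 8.27, and on day 7 56.0% ± 4.69 and 51.6% ± 9.31. The summed level of the 7 metalloproteinases rose from 9.49 ± 7.47 CPM per kilobase on day 0 to 85.1 ± 42.8 on day 1 in Krt8+/+ AECs and stood at 118 ± 29.5 and 112 ± 33.3 on days 3 and 7. The TIMPs summed to 59.3 ± 17.7, 178 ± 33.3, 772 ± 77.1 and 882 ± 204 CPM per kilobase on days 0, 1, 3 and 7. The sum of the TIMPs was above that of the 7 metalloproteinases in every library. Both sums cover the listed genes only, so their levels and their ratio depend on that list. Mmp15, which is outside the list, was at a mean of 333, 53.3 and 6.31 CPM on days 0, 1 and 7 in Krt8+/+ AECs. It thus fell while the listed metalloproteinase sum rose, and the ratio with Mmp15 included was not computed. The ratio of the sums was lowest on day 1, when it was 1.252 to 5.14 over the 6 libraries of both genotypes, against 4.62 to 20.5 on day 0 and 5.06 to 10.7 on day 7.

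**Figure D2:**
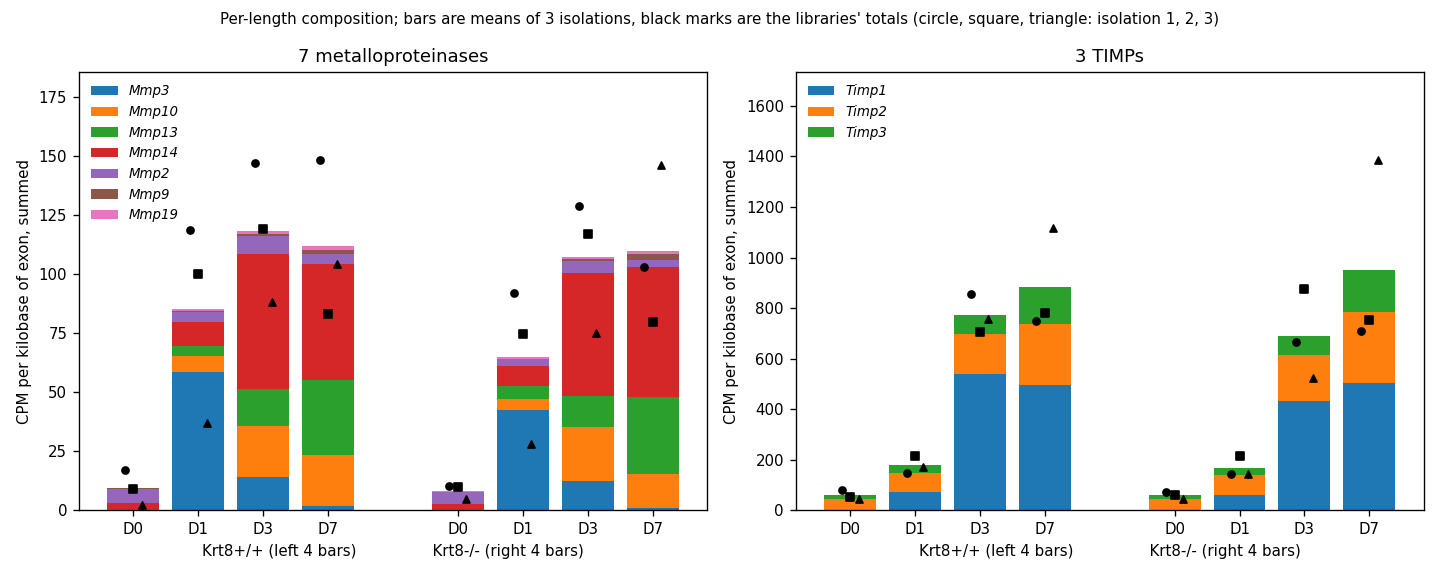
Summed CPM per kilobase of exon (vertical, from 0) of the 7 metalloproteinases (left panel) and the 3 TIMPs (right panel) by genotype and day (horizontal). Stacked bars are group means and black marks the totals of the 3 libraries; Mmp3 makes up most of the day 1 bars, Mmp14 and Mmp13 most of the day 7 bars, and Timp1 most of the TIMP bars from day 3.

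The comparison of genotypes asks whether loss of keratin 8 changes these levels. No member was called different between Krt8-/- and Krt8+/+ AECs on day 0, 1, 3 or 7, over days 1 to 7 or in the genotype difference by day (edgeR adjusted p = 1 for each member in each comparison). Of all genes, 0.0277% were called on day 0, 0.0166% on each of days 1, 3 and 7, 0.0277% over days 1 to 7 and 0.00554% in the difference by day. Without adjustment, 1 of these tests of a member passed 0.05, that of Mmp9 on day 0, which rests on 2 against 19 counts. DESeq2 and every other setting tried also called 0 of the 10 members in each of these comparisons. In simulated counts, the day 7 genotype test called 33% of genes changed 2-fold and 69.7% of those changed 4-fold. There, 102 of 199 changed genes were called, where the real day 7 test called 3 genes. The adjustment is stricter when fewer genes are called, so these rates can be too high for the real test. Differences of such sizes can thus go uncalled.

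Over days 1 to 7 the fitted genotype differences ranged from -0.60 to 0.16 on the log2 scale, and those of Mmp2, Mmp19 and Timp2 were larger than their SE. Krt8-/- minus Krt8+/+ was -0.55 ± 0.36 for Mmp2, -0.42 ± 0.50 for Mmp3, -0.24 ± 0.48 for Mmp9, -0.25 ± 0.33 for Mmp10, -0.05 ± 0.40 for Mmp13, -0.05 ± 0.18 for Mmp14 and -0.60 ± 0.55 for Mmp19 (log2, SE). For the inhibitors it was -0.19 ± 0.29 for Timp1, 0.16 ± 0.13 for Timp2 and 0.06 ± 0.17 for Timp3. By area under the CPM over these days, the Krt8-/- value of Mmp2, Mmp3 and Mmp19 was the smaller one in each of the 3 isolations, with Krt8-/- to Krt8+/+ ratios of 0.594 to 0.797, 0.690 to 0.824 and 0.679 to 0.721, and Timp2 and Timp3 were higher in 3 of 3, with ratios of 1.06 to 1.16 and 1.06 to 1.11. None of these passed the test over all genes. The share of all genes that went the same way in 3 of 3 isolations was not computed. Without isolation 1, in which the genotypes differ in sex genes, the difference was -0.09 for the X-linked Timp1, -0.37 for Mmp2, -0.18 for Mmp3, -0.03 for Mmp10, -0.20 for Mmp13, 0.12 for Mmp14 and -0.45 for Mmp19 (log2, adjusted p = 1 each), so the sign of Mmp14 turned. The macrophage markers were also lower in the Krt8-/- library than in the Krt8+/+ library of each isolation on each day, and their part in the values of Mmp2, Mmp3 and Mmp19 was not tested.

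**Figure D3:**
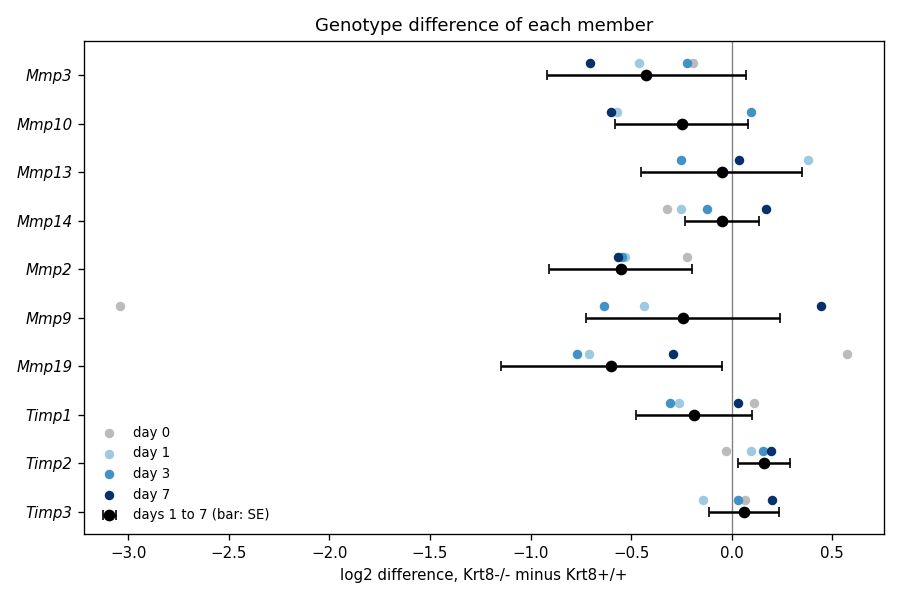
Log2 difference between Krt8-/- and Krt8+/+ AECs (horizontal) for each member (vertical), with the estimate over days 1 to 7 and its SE in black and the estimates of single days in grey and blue. The estimates over days 1 to 7 lie between -0.60 and 0.16, and the only estimate beyond 1 in size is that of Mmp9 on day 0, which rests on 21 counts.

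Mmp3, Mmp10 and Mmp13 lie in a run of 10 metalloproteinase genes that spans 427072 bases of chromosome 9, and their neighbours did not move as a block. Mmp12 (macrophage elastase) and Mmp8 (neutrophil collagenase), which lie in the same run, rose in culture. The other 5, Mmp1a, Mmp1b, Mmp7, Mmp20 and Mmp27, had 0 to 80 counts over all 24 libraries and did not pass the filter. Mmp12 was at 0.508, 0 and 0.332 CPM on day 0 and at 263, 147 and 0.662 CPM on day 7 in Krt8+/+ AECs, and at 0.791, 0.607 and 0, then 108, 38.0 and 0.0637 CPM in Krt8-/- AECs. Isolations 1 and 2 were high and isolation 3 was near 0 on every day of culture. The day 7 differences of Mmp12 were 8.71 ± 2.89 and 6.69 ± 2.68 (log2, adjusted p = 0.0135 and 0.0375), and Mmp8 was higher on day 7 by 4.32 ± 1.33 in Krt8+/+ AECs (adjusted p = 0.00921).

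The macrophage markers followed the isolations in the same order as Mmp12. They summed to 177, 91.7 and 25.1 CPM in isolations 1, 2 and 3 on day 1 and to 139, 40.1 and 10.9 CPM on day 7 in Krt8+/+ AECs. Mmp3 had the same order on day 1 (155, 127 and 34.9 CPM). In isolation 3 the macrophage markers summed to 25.1 and 21.2 CPM on day 1 and Mmp12 was at no more than 0.0678 CPM, and the Mmp3 levels of the 2 genotypes were 34.9 and 27.7 CPM. In the same isolation Mmp13 reached 91.4 and 130.0 CPM, Mmp14 320.0 and 420.0 CPM and Timp1 561 and 724 CPM on day 7. Across the 24 libraries, which share isolations and days, log2 CPM of Mmp3 had a Pearson r of 0.63 with the macrophage list. It also had 0.63 with a list of 5 lymphocyte markers and -0.79 with a list of 8 markers of type I alveolar epithelial cells. Mmp2 had 0.51 with the macrophage list, 0.52 with the lymphocyte list and 0.45 with each of the fibroblast and neutrophil lists.

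The other members moved with other marker lists. With the mesothelial list, Pearson r over the 24 libraries was 0.94 for Timp2 and Mmp14, 0.92 for Timp3, 0.90 for Timp1, 0.85 for Mmp9 and Mmp13 and 0.84 for Mmp10. With the fibroblast list it was 0.67 for Timp2, 0.66 for Mmp9, 0.63 for Timp3, 0.60 for Mmp14, 0.41 for Timp1, 0.35 for Mmp13 and 0.30 for Mmp10. With a list of 4 epithelial markers it was 0.76 for Mmp10, 0.73 for Timp1 and Mmp13, 0.72 for Mmp14, 0.70 for Timp3, 0.68 for Timp2 and 0.63 for Mmp9. Of those 4, only Krt18 was called higher on day 7 than on day 0 in Krt8+/+ AECs. With the AEC2 list it was -0.96 for Timp2 and Mmp14, -0.94 for Timp3 and -0.91 for Timp1. These libraries share days, which the mesothelial, fibroblast and AEC2 lists follow. Of the mesothelial markers, Msln went from a mean of 34.8 CPM on day 0 to 1461 CPM on day 7 in Krt8+/+ AECs. It made up most of the sum in culture. Between the same days Upk3b went from 61.6 to 1.40 CPM, Lrrn4 from 28.9 to 5.02 CPM and Wt1 from 2.79 to 0.747 CPM. On day 3, however, Lrrn4 was higher than on day 0 by 1.37 ± 0.47 (log2, adjusted p = 0.0191). Wt1 differed by 1.01 ± 0.60, which was not called (adjusted p = 0.168), and Upk3b by -4.535 ± 0.63. The part of macrophages, lymphocytes, fibroblasts and mesothelial cells in the levels of the members was not tested.

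**Figure D4:**
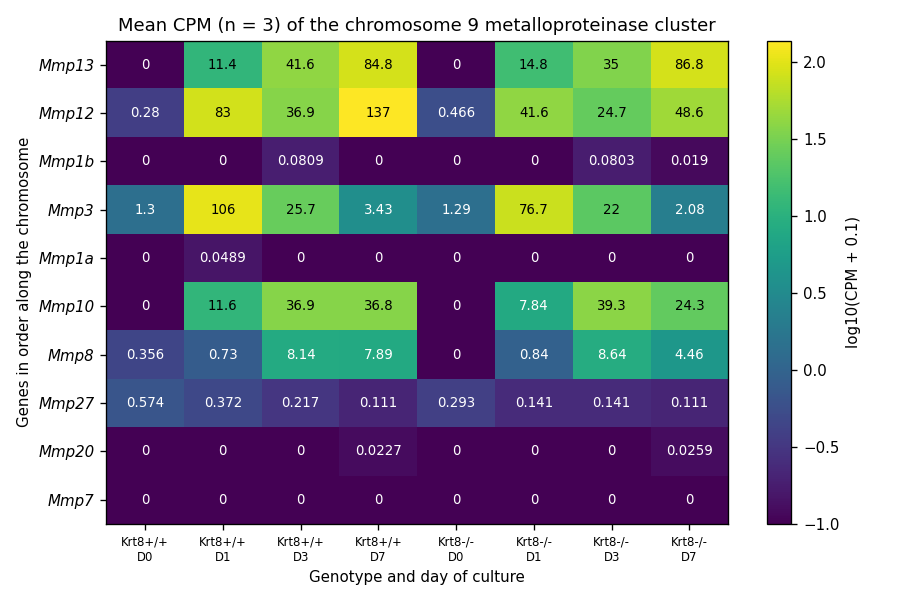
Mean CPM of 3 isolations, as numbers and as colour on a log10(CPM + 0.1) scale, for the 10 genes of the chromosome 9 run in order along the chromosome (vertical) by genotype and day (horizontal). Mmp13, Mmp12, Mmp3, Mmp10 and Mmp8 have counts in culture, and the genes between and beyond them stay at or near 0.

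**Figure D5:**
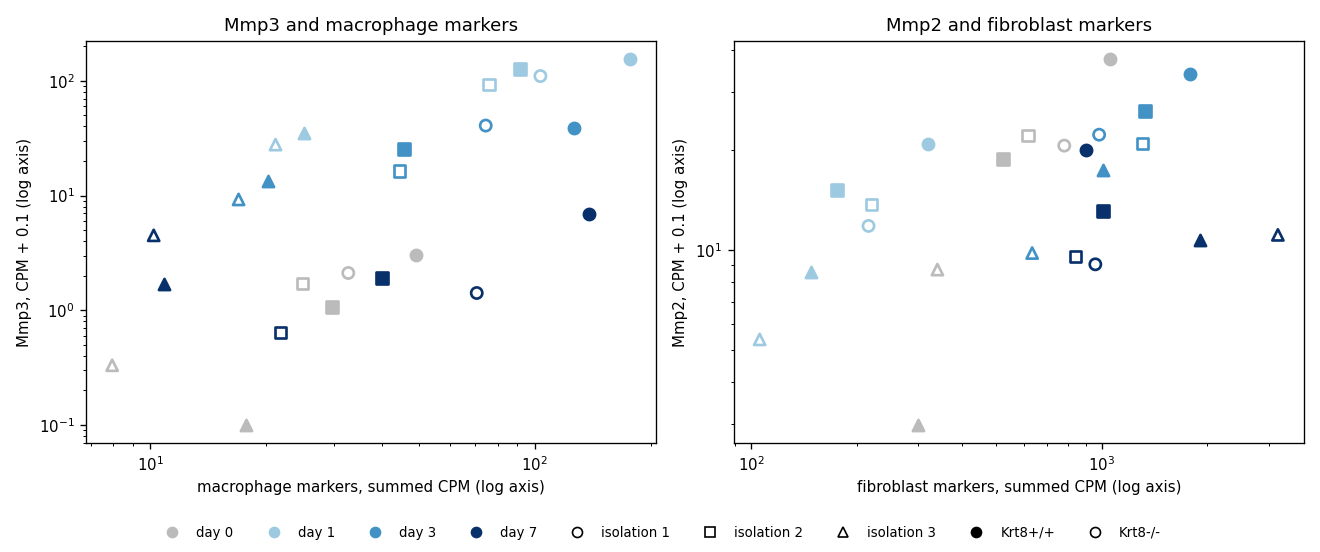
Mmp3 against the sum of 10 macrophage markers (left) and Mmp2 against the sum of 10 fibroblast markers (right), in CPM on log axes with 0.1 added to the vertical values, 1 point a library, coloured by day, shaped by isolation and filled for Krt8+/+. Within a day and genotype, isolation 1 lies to the right and isolation 3 to the left in the Mmp3 panel.

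Of the 16 other metalloproteinase genes, 10 were tested. On day 7, 5 of them were higher and 2 lower than on day 0 in each genotype. Of all genes, 28.6% were higher in each genotype, and 30.2% and 29.9% were lower. The median log2 difference of the 10 was 0.71 in Krt8+/+ AECs against 0 for all genes. Mmp15, a membrane-type metalloproteinase, had the opposite course to its relative Mmp14. It fell from 333 ± 26.0 CPM on day 0 to 6.31 ± 2.82 CPM on day 7 in Krt8+/+ AECs (SD, n = 3) and from 319 ± 16.3 to 5.49 ± 2.17 CPM in Krt8-/- AECs, with log2 differences of -5.72 ± 0.36 and -5.86 ± 0.36 (adjusted p = 8.25e-11 and 6.47e-11). Mmp28 also fell (log2 -3.98 ± 1.15 in Krt8+/+ AECs, adjusted p = 0.00608).

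Of 4 other metalloproteinase inhibitors 2 were tested, and they moved in opposite directions. Tfpi2, a secreted protease inhibitor, rose by 5.09 ± 0.96 on day 7 in Krt8+/+ AECs (log2, adjusted p = 0.00012), and Reck, a membrane-anchored inhibitor of Mmp14, Mmp2 and Mmp9, went from 13.5 ± 2.302 CPM on day 0 to 1.92 ± 0.15 CPM on day 1 and 7.51 ± 2.05 CPM on day 7 (log2 -2.81 ± 0.33 and -0.85 ± 0.30, adjusted p = 5.86e-07 and 0.0193). Of 10 activators of pro-metalloproteinases 9 were tested. On day 7 in Krt8+/+ AECs 3 were higher and 1 was lower, and in Krt8-/- AECs 4 were higher and 0 lower, so 4 of 9 were called in each genotype where 58.8% and 58.5% of all genes were. Plaur, the urokinase receptor, rose by 6.48 ± 0.47 (adjusted p = 6.01e-10) and Plau, urokinase, by 6.07 ± 0.92 (adjusted p = 1.5e-05) in Krt8+/+ AECs, both in 3 of 3 isolations.

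Of 16 ADAM and ADAMTS proteases, relatives that Timp3 can inhibit in part, 10 were higher and 5 lower on day 7 in Krt8+/+ AECs. In Krt8-/- AECs 8 were higher and 5 lower (all genes, 28.6% higher in each genotype and 30.2% and 29.9% lower). Adam12 rose by 9.26 ± 0.50 (log2, adjusted p = 1.3e-11) and Adamts15 fell by 7.19 ± 1.39 (adjusted p = 0.000154) in Krt8+/+ AECs. Of 11 AP-1 and ETS factors, families known to act on metalloproteinase promoters, 4 were higher and 5 lower on day 7 in each genotype, against the same shares of all genes. Fosl1 was at 0.201 ± 0.19 CPM on day 0 and 324 ± 104 CPM on day 1 in Krt8+/+ AECs (SD, n = 3). On days 3 and 7 it was at 53.7 ± 5.93 and 43.3 ± 23.4 CPM. Mmp3 was highest on day 1 as well. Mmp10 and Mmp13, whose promoters hold the AP-1 element too, had higher means on days 3 and 7 than on day 1. The part of Fosl1 in these levels was not tested. Fos fell by 5.31 ± 0.70 on day 7 (log2, adjusted p = 1.67e-06), and Ets1 rose by 3.04 ± 0.22 (adjusted p = 4.1e-10). No gene of these 5 lists was called different by genotype over days 1 to 7 (0 of 48 tested).

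As a description of shared courses, the closest pair of members was Timp2 and Timp3, with a Pearson r of 0.985 between their log2 CPM over the 24 libraries, followed by Mmp10 with Mmp13 (0.965) and with Timp1 (0.963). The libraries share days, so such values mainly follow the days and carry no p. Mmp3 stood apart, with r from 0.10 to 0.55 with the other members, and Mmp2 had 0.06 to 0.43. Outside the family and among 17055 genes, Has1, a hyaluronan synthase, was closest to Mmp3 (0.94), with the mast cell tryptase Tpsab1 next (0.92), Zyx, which encodes the focal adhesion protein zyxin, to Mmp14 (0.99), and Adam12 was second closest to Timp1 (0.98). Fbln2, Itgb5 and Lox were closest to Timp2 (0.99 each), Lamb1 to Mmp9 (0.94), Lama4 to Mmp2 (0.81), Spdl1 to Mmp10 (0.98) and Mapk6 closest to Mmp13 (0.98).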

How the data were processed

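RNA of 24 libraries was sequenced. The deposited values are raw counts, 1 whole number per gene and library in a single table that the authors did not normalize. The submitters' processing notes name cutadapt 2.3, STAR 2.7.8a, RSEM 1.3.3 and GRCm38; whether RSEM estimates were rounded, the annotation release and the strand setting could not be read from any source used here. Of 55426 entries, 5 reporters had 0 counts. GENCODE M21 gave symbols and exon lengths. No 2 libraries of a group were identical (24 pairs).

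Analysis used R 4.3.3, edgeR 4.0.16, DESeq2 1.42.0, Python, pandas 2.3.3 and matplotlib 3.10.9. Low genes were removed with edgeR's filterByExpr at a minimum of 10 counts (15 in total), libraries were scaled by TMM, and counts were fitted in 1 quasi-likelihood model of 8 groups, checked on simulated data, and named by rules (up to 4 genes a list, at least 1 CPM, same direction in 3 isolations on day 7). The SE was recovered from the F statistic. Days 1, 3 and 7 were weighted 0.167, 0.5 and 0.333 over days 1 to 7. Correlations were taken on log2 CPM with 2 counts added. Intervals and floors cover counting error only. The members and gene lists were chosen with earlier results of these data known. Genotypes and days share the dates in the sample names, taken here as isolations, which pairs libraries by number (correlation of deviations between genotypes 0.0573 to 0.548).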

Additional observations from a re-analysis of the deposited data

How the results depend on the processing

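Each count of members called was recomputed without the low-count filter, with other size factors (those of DESeq2), with DESeq2 in place of edgeR, with isolation as a replicate block, with each isolation left out and, except for the difference by day, with only the libraries compared. Of 143 recomputed counts, all but 6 were within 1.5 times the value reported. The 6 came from leaving out an isolation: for day 7 against day 3 the counts ranged from 0 to 1 in Krt8+/+ and from 0 to 2 in Krt8-/- AECs, against 2 in each, and for day 3 against day 1 in Krt8+/+ AECs from 3 to 6 against 7. Fewer libraries remain in those fits. With the replicate block, 7 members were called on day 1, 8 on day 3 against day 1 and 8 on day 7 in Krt8+/+ AECs, and the block changed no other call than the 4 given above. Of 1360 recomputed differences of single members, 1307 kept their call, 37 lost it, 16 gained it and 0 called values changed sign; 45 uncalled ones changed sign. The genotype counts were 0 in all 40 recomputations. Without TMM, 7 of 80 group levels moved by over 1 SD. Ranked by Spearman's rho, 4 of the 30 genes named as most like a member stayed among the 3 closest. With 3 libraries a group, low counts limit Mmp9, Mmp19 and all values of Mmp10 and Mmp13 on day 0.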
